A study of Mus musculus with 4 samples.

Results

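The Slc25 genes encode the mitochondrial carriers, membrane proteins that move nucleotides, phosphate, acids, amino acids, cofactors and metals between the cytosol and the mitochondrial matrix. The members were the 45 protein-coding mouse genes whose symbols start with Slc25a in the GRCm38 RefSeq gene table, without Slc25a37 and Slc25a38, which supply iron and glycine to haem synthesis and were left aside. They are 45 of 21887 protein-coding genes. Their open regions were those overlapping a gene's span or the 1 kb beyond either end of it, and they numbered 41 of 15328. The measurement was ATAC-seq, in which a transposase cuts accessible DNA, in G1ER cells. G1ER is a mouse erythroblast line that lacks Gata1 and carries GATA1 joined to part of the estrogen receptor. Chd7-/- G1ER cells (KO), without the nucleosome remodeller CHD7, were compared with wild-type G1ER cells (WT). Each genotype had 2 libraries of 50000 cells, with replicate 1 labelled 1 h and replicate 2 labelled 2 h. The protocol gives a transposition of 1 to 2 h, and whether the labelled time refers to it is not stated. Both genotypes grew in the same medium with EPO and SCF and received no treatment. The 2 KO libraries share a code in their descriptions. Whether it names 1 clone is not stated, so genotype and clone cannot be told apart. Nothing states that replicates were separate cultures, so p-values measure the spread between these libraries, which may be technical.

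Carriers cross the outer membrane through the TOM complex and are placed in the inner membrane by the TIM22 complex with the help of small TIM chaperones. The ADP/ATP carriers export the ATP made by respiration, and the phosphate carrier brings in the phosphate it needs. Erythroid cells draw on this family for the metabolites of haem synthesis, for iron and for glutathione.

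The lists held 12443 and 11376 nuclear peaks in KO replicates 1 and 2, and 11084 and 12043 in WT replicates 1 and 2. Read totals are unknown. The lowest local background, a stand-in for depth, was 1.04 and 1.01 fragments in the KO libraries and 0.787 and 1.08 in the WT libraries, so WT replicate 1 was lowest. Of 10 erythroblast markers, 7 had a region, including Gata1, Klf1 and Tfrc, while Hbb-bt, Hba-a1 and Slc4a1 had 0. As the line lacks Gata1, the call there does not show an intact gene. Of 6 granulocyte and macrophage markers, Spi1 alone had 1 region; of 6 lymphoid markers 0 did, and of 4 fibroblast markers Col1a1 had 1, in KO replicate 2. Chd7 itself is not checked by these lists.

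The promoter sequences below belong to carriers at the range of calls seen here. Each line holds the 250 bases before the RefSeq gene start (GRCm38.p6), written 5′ to 3′ on the gene's strand, with CG dinucleotides in capitals. Slc25a42 and Slc25a29 were among the strongest regions, Slc25a20 held the only ETS motif, and Slc25a4 and Slc25a5 are the ADP/ATP carriers with incomplete calls. Slc25a31 and Slc25a21 had no called region over these bases.
Slc25a42, chr8:70212282-70212531, minus strand: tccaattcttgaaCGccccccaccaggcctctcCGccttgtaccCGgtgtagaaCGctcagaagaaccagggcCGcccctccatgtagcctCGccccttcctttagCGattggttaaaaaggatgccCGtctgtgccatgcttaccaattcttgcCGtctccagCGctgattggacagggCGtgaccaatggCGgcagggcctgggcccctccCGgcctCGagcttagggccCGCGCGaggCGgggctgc
Slc25a29, chr12:108835877-108836126, minus strand: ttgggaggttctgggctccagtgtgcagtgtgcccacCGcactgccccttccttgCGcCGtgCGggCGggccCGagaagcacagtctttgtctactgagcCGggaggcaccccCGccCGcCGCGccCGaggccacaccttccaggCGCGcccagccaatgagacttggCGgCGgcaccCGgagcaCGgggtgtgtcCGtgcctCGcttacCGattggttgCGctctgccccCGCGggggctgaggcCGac
Slc25a20, chr9:108661886-108662135, plus strand: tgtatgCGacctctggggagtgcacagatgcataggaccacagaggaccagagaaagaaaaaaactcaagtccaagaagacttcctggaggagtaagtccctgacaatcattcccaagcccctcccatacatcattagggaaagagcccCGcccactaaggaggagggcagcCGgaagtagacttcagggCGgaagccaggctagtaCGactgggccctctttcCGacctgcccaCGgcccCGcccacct
Slc25a4, chr8:46211063-46211312, minus strand: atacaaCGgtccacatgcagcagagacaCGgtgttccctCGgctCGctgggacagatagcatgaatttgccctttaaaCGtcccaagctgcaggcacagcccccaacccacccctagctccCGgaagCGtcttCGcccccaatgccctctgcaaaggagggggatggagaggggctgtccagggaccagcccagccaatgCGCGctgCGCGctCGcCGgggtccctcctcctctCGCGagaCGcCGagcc
Slc25a5, chrX:36795347-36795596, plus strand: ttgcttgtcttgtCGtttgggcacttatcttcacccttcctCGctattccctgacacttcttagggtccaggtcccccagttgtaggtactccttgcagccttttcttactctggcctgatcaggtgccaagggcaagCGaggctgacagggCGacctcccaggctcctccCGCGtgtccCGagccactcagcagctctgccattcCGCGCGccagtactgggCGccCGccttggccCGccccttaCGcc
Slc25a31, chr3:40708621-40708870, plus strand: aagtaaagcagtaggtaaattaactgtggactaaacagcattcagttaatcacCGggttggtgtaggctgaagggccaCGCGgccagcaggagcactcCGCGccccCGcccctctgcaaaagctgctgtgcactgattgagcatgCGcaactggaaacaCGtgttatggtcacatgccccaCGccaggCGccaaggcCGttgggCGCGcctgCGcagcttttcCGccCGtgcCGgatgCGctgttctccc
Slc25a21, chr12:57197473-57197722, minus strand: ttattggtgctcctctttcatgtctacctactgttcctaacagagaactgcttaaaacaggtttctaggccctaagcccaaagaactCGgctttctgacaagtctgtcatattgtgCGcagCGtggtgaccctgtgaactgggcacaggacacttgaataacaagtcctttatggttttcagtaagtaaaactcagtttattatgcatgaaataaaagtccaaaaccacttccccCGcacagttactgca
These 7 stretches held 18, 25, 8, 18, 14, 18 and 4 CG dinucleotides, in the order shown.

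Most carrier genes had open regions in both genotypes, and 0 regions were called in both libraries of a single genotype alone. A region was called in at least 1 library at 33 of 45 members (73.3%), against 10017 of 21887 protein-coding genes (45.8%) and 143 of 342 Slc genes outside the family (41.8%). At 26 members (57.8%) a region was called in all 4 libraries, against 36.6% of protein-coding genes. Of the 41 regions, 28 were called in all 4 libraries (68.3%, against 56.8% of all regions), 6 in exactly 3 (against 10.3%), 2 in exactly 2 (against 11.3%) and 5 in exactly 1 (against 21.7%). All regions include those far from genes. Of the 11935 regions linked to protein-coding genes by the members' rule, 63.3% were called in all 4 libraries. These shares describe the lists and were not tested. Called in both KO and neither WT library were 0 of 41 regions, against 2.71% of all regions, and called in both WT and neither KO library were 0 of 41, against 2.25%. Among the 11935 regions linked to protein-coding genes these classes held 240 and 249. The 12 members with no region were Slc25a2, Slc25a18, Slc25a22, Slc25a24, Slc25a27, Slc25a31, Slc25a34, Slc25a43, Slc25a45, Slc25a47, Slc25a48 and Slc25a54. A missing call does not show closed DNA, only that no peak passed in that list, where the smallest called summit held 6 or 7 fragments.

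**Figure D1:**
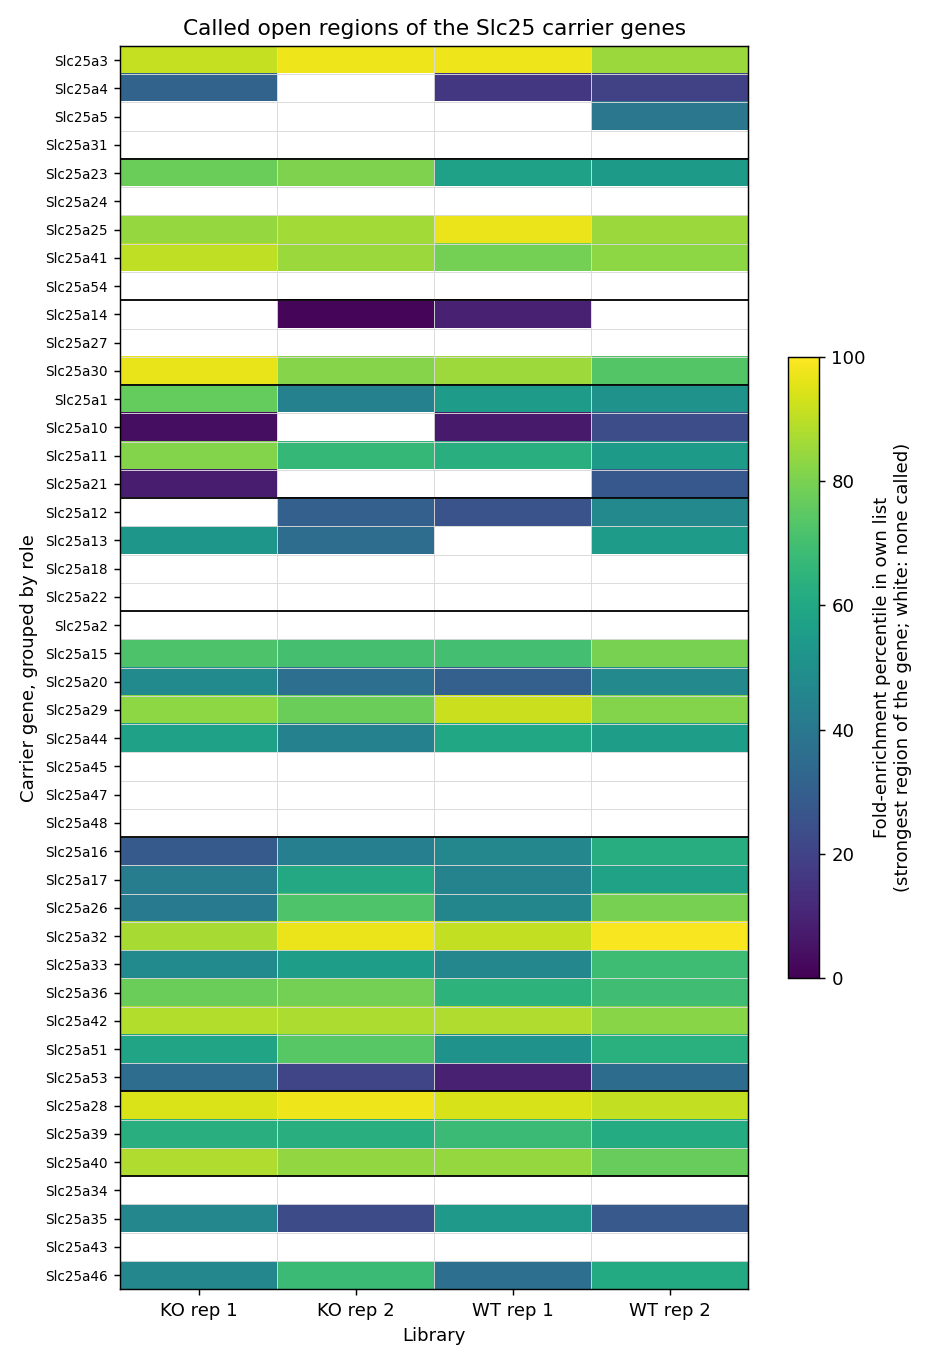
Each row is 1 of 44 carrier genes of the 45, grouped by role and separated by black lines, and each column is a library. Colour gives the fold-enrichment percentile of the gene's strongest region within that library's own list, from 0 to 100, and white means no call; 12 genes are white throughout and the others have a call in at least 1 library.

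Per library, 30 and 29 member genes had a called region in KO replicates 1 and 2, and 30 and 32 in WT replicates 1 and 2. The KO mean was 29.5 ± 0.707 and the WT mean 31.0 ± 1.41 (SD, n = 2 each), with a difference of -1.5 within the spread (exact two-sided permutation p = 0.667). By regions, 34 and 31 were called in KO replicates 1 and 2, against 80% and 73.3% of all regions, and 35 and 39 in WT replicates 1 and 2, against 71.3% and 77.6%. The difference was -4.5, with groups that did not overlap (exact two-sided permutation p = 0.333, the smallest p that 2 libraries against 2 can give). The difference in genes was -3 with lists of equal length, -2.5 without WT replicate 1 and -0.5 without WT replicate 2. WT replicate 2 missed 2 of the 41 and KO replicate 2 missed 10.

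The phosphate carrier was strongly open, whereas the ADP/ATP carriers were weak or uncalled. Slc25a3, the phosphate carrier, had a region at its start (chromosome 10, 91123668 to 91124364) with 49 and 45 fragments at the summit in KO replicates 1 and 2, and 50 and 50 in WT replicates 1 and 2. The genotypes were close together, and the region stood at the 85.0th percentile or higher of fold enrichment in every list. Slc25a4, the ADP/ATP carrier of heart and muscle, had 12 fragments in KO replicate 1 and no call in KO replicate 2, against 9 and 11 in WT replicates 1 and 2 (chromosome 8, 46210852 to 46211216). Slc25a5, the ADP/ATP carrier common to dividing cells, was called in WT replicate 2 alone, with 13 fragments at its start (chromosome X, 36795511 to 36795711; exact Poisson 95% interval 6.92 to 22.2, counting error only). A further Slc25a5 region inside the gene, with its summit 766 bp downstream of the start, also came from WT replicate 2 alone, with 15 fragments. Slc25a31, an ADP/ATP carrier known from the testis, had 0 regions.

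Among the ATP-Mg/phosphate carriers, which set the adenine nucleotide pool of the matrix, 3 of 5 had a region and each of those was called in all 4 libraries. Slc25a23 had 36 and 32 fragments in KO replicates 1 and 2, and 24 and 29 in WT replicates 1 and 2 (chromosome 17, 57060193 to 57060824). Its KO libraries lay above its WT libraries, and the region lies outside the gene span, with a summit at -638 bp from the nearer listed start, negative being upstream. The highest member region, at Slc25a41 (chromosome 17, 57031383 to 57032330), had 95 and 82 fragments in KO and 73 and 88 in WT. That region lies outside the Slc25a41 span and also touches Khsrp, which encodes an RNA-binding protein, so its signal cannot be assigned to Slc25a41. The Slc25a25 region, at 47 and 41 fragments in KO against 51 and 50 in WT, overlaps the Slc25a25 span. It also touches Naif1, so its signal cannot be assigned to either gene alone. Slc25a24 and Slc25a54 had 0 regions.

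Of the uncoupling-protein-like carriers, Slc25a30 had 42 and 28 fragments in KO and 31 and 28 in WT, so the genotypes overlapped. Slc25a14 was called in KO replicate 2 with 7 fragments and in WT replicate 1 with 8, and Slc25a27 in 0 libraries.

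The acid carriers split by strength. Slc25a1, the citrate carrier, had 30 and 20 fragments in KO and 26 and 27 in WT, with the WT values inside the KO range. Slc25a11, the oxoglutarate/malate carrier of the malate-aspartate shuttle, had 42 and 34 in KO and 32 and 31 in WT, with both KO libraries higher, in a region that also touches Rnf167. Slc25a10, the dicarboxylate carrier, had 9 fragments in KO replicate 1, no call in KO replicate 2, and 10 and 14 in WT. Slc25a21, the oxodicarboxylate carrier, had 15 fragments in KO replicate 1 and 21 in WT replicate 2 near its start, and a further region deeper in the gene in WT replicate 2 alone.

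The aspartate and glutamate carriers had 0 regions called in all 4 libraries. Slc25a13, an aspartate-glutamate carrier of the malate-aspartate shuttle, had 15 and 12 fragments in KO, no call in WT replicate 1 and 17 in WT replicate 2. Slc25a12, its paralogue, had no call in KO replicate 1, 12 in KO replicate 2, and 10 and 15 in WT at its start. It also had a call of 8 fragments inside the gene in WT replicate 1. The glutamate carriers Slc25a18 and Slc25a22 had 0 regions.

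Of the carriers of other amino acids, ornithine and acylcarnitine, 4 of 8 had a region in all 4 libraries. Slc25a29, a basic amino acid carrier, had 53 and 46 fragments in KO and 53 and 54 in WT. Slc25a15, the ornithine carrier of the urea cycle, had 30 and 25 in KO and 29 and 35 in WT. Slc25a20, the carnitine-acylcarnitine carrier of fatty acid oxidation, was weaker, at 14 and 12 in KO and 11 and 15 in WT. Slc25a44, a carrier of branched-chain amino acids, had 3 regions on chromosome 3. The region at 88425013 to 88425407 had 16 and 16 fragments in KO and 25 and 19 in WT, and the region at 88409771 to 88410533, which also touches Pmf1, had 22 and 18 in KO and 21 and 30 in WT. The middle region, at 88421962 to 88422407, had 11 in KO replicate 1, no call in KO replicate 2, and 14 and 20 in WT.

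Of the genes grouped here as carriers of nucleotides, cofactors and vitamins, 10 of 10 had a region called in all 4 libraries, against 36.6% of protein-coding genes. Slc25a32, the folate and FAD carrier, had 42 and 46 fragments in KO and 39 and 58 in WT, in a region that also touches Dcaf13. Slc25a42, a coenzyme A carrier, had 63 and 63 in KO and 52 and 57 in WT. These raw values put KO higher at Slc25a42, before scaling for library depth. Slc25a16, linked to coenzyme A, had 11 and 13 in KO and 13 and 18 in WT, and Slc25a17, a peroxisomal member, 13 and 16 in KO and 14 and 17 in WT. Slc25a26, the S-adenosylmethionine carrier, had 15 and 24 in KO and 17 and 25 in WT at its gene end, with both replicate 2 libraries higher. The same gene held 2 weaker regions inside its span, 1 called in all libraries but KO replicate 2 and 1 in WT replicate 2 alone. The pyrimidine nucleotide carriers Slc25a33 and Slc25a36 had 14 and 17 in KO against 13 and 20 in WT, and 34 and 25 in KO against 26 and 30 in WT. The NAD carrier Slc25a51 had 23 and 28 in KO and 20 and 28 in WT. The lowest region in all 4 libraries was that of Slc25a53, a carrier of uncertain cargo, with 12 and 10 in KO and 8 and 13 in WT.

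The iron and glutathione carriers were likewise open in both genotypes. Slc25a28, mitoferrin 2, which imports iron, had 61 and 65 fragments in KO and 58 and 69 in WT (chromosome 19, 43674678 to 43675545), at the 90.9th percentile or higher in every list. By that lowest percentile it was the strongest member region. Slc25a39, the glutathione carrier, had 2 regions. The region at its listed start (chromosome 11, 102407359 to 102408081) had 36 and 33 in KO against 35 and 30 in WT. The other, about 1 kb upstream of that start (102408386 to 102408852), had 35 and 37 in KO against 40 and 40 in WT. It covers the outer end of the gene span, at 102408675. Slc25a40, its paralogue, had 42 and 31 in KO and 39 and 43 in WT, in a region shared with Dbf4, a regulator of DNA replication. In the remaining group, Slc25a46, an outer-membrane protein of mitochondrial dynamics, had 14 and 19 in KO and 13 and 20 in WT, and Slc25a35 had 16 and 11 in KO and 17 and 12 in WT. Slc25a34 and Slc25a43 had 0 regions.

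**Figure D2:**
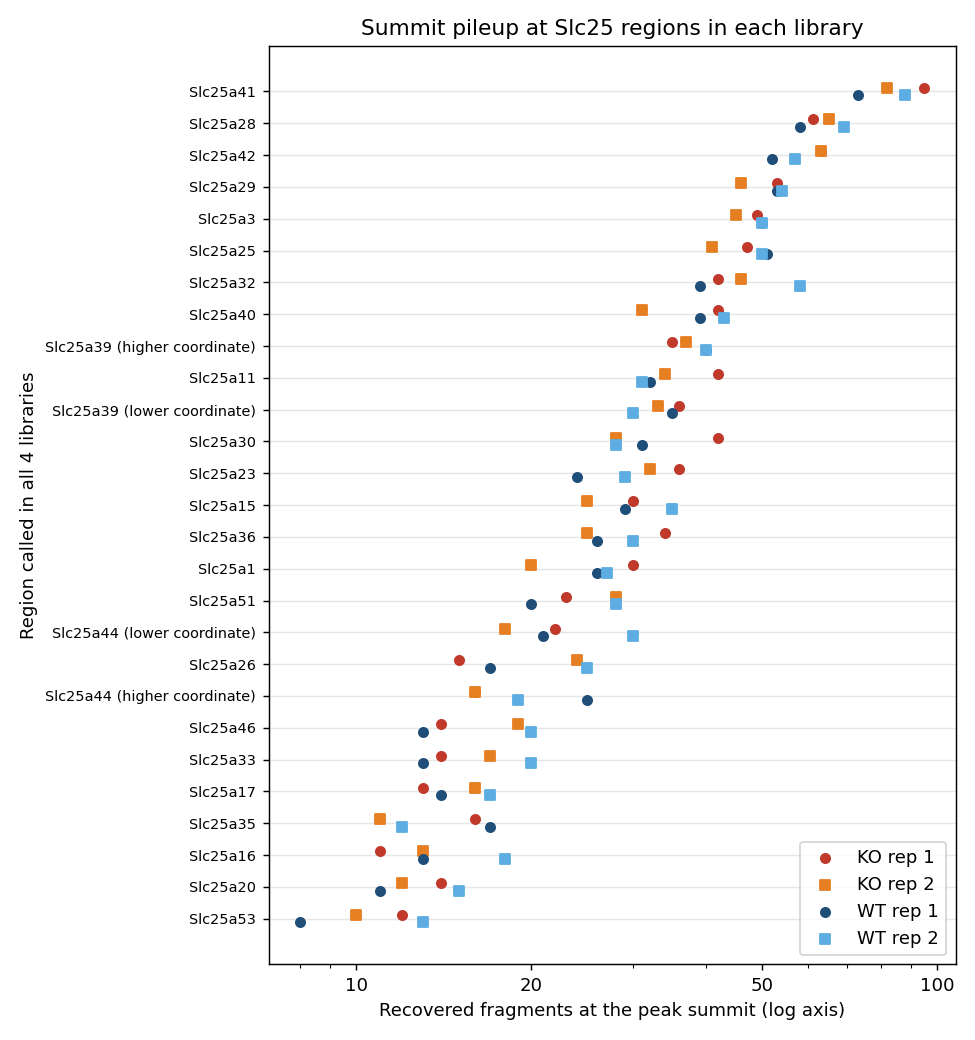
Each row is 1 of 27 member regions, of the 28 called in all 4 libraries, ordered by mean, and the log axis gives the fragments at the summit in KO replicates (red, orange) and WT replicates (dark and light blue). Regions run from 8 to 95 fragments, and KO and WT points mix within most rows.

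The order of strength was wider than the differences between genotypes. Summits in the 28 regions ranged from 8 to 95 fragments with a median of 29.5, and the 13 regions called in fewer than 4 libraries ranged from 7 to 21 with a median of 12. Regions called in all 4 libraries had a median length of 710 bp, against 635 bp for all regions with 4 calls, and the others of 356 bp. All 28 lay within 1 kb of a gene end, as did 8 of the other 13. Summit pileups were compared as log2(pileup + 1), centred on each library's median over 8704 regions, so that differences of low regions are understated. With limma and Benjamini-Hochberg adjustment, 0 of 28 member regions and 0 of 8704 regions (0%) passed adjusted p = 0.05. At an unadjusted p below 0.05 there were 1 of 28 member regions, higher in KO, and 758 of 8704 (8.71%), of which 5.03% of all regions were higher and 3.68% lower in KO. Over the 7549 fitted regions linked to protein-coding genes the share was 7.88%. The 28 differences, KO minus WT, had a median of -0.0089 on the log2 scale, against 0.023 over all regions, and reached 0.43, with 13 positive and 15 negative. The median half-width of their 95% intervals was 0.45, so differences smaller than this were mostly not detectable with 2 libraries per genotype.

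The member region past the unadjusted level was that of Slc25a23, which averaged 0.43 higher in KO on the log2 scale (95% interval 0.03 to 0.84; 0.45 at 1 h and 0.41 at 2 h) with limma adjusted p = 0.534. Its unadjusted limma p was 0.0389, and it was 0.051 with the replicate block, 0.442 when libraries were scaled by their lowest background, and 0.0821 to 0.112 with any 1 library left out, so the unadjusted call did not hold in these fits. It was followed by Slc25a11 at 0.34 (-0.09 to 0.77; limma adjusted p = 0.673), Slc25a30 at 0.29 (limma adjusted p = 0.776), Slc25a42 at 0.29 (limma adjusted p = 0.727) and Slc25a41 at 0.22 (limma adjusted p = 0.806). Both labelled times gave a positive difference in each of these 5. Scaling by lowest background, which moved the median over all regions to -0.21, gave 0.20 at Slc25a23, 0.10 at Slc25a11, 0.060 at Slc25a30 and 0.054 at Slc25a42, and changed the sign at Slc25a41, to -0.016. The value at Slc25a30 was 0.095 without KO replicate 1 and 0.12 without WT replicate 2, against 0.49 without KO replicate 2 and 0.47 without WT replicate 1. At Slc25a11 it was 0.21 without WT replicate 2, and at Slc25a42 the deposited fold enrichment gave 0.072.

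At the other end, among the members with values given here, the Slc25a44 region at 88425013 was lowest, at -0.34 (-0.86 to 0.17, limma adjusted p = 0.733). It had -0.72 at 1 h and 0.039 at 2 h, -0.046 without WT replicate 1 and -0.64 without WT replicate 2. Its deposited fold enrichment gave -0.14. Slc25a16 had -0.25, the Slc25a44 region at 88409771 had -0.24 and Slc25a15 had -0.13. For these 3, the difference was negative at both labelled times. Slc25a16 had -0.054 without KO replicate 1, -0.14 without WT replicate 2 and -0.45 without KO replicate 2. The Slc25a44 region at 88409771 had -0.10 without WT replicate 2, -0.38 without WT replicate 1 and -0.078 by the deposited fold enrichment, which gave -0.067 at Slc25a15. Scaling by lowest background made all 4 regions lower still, from -0.58 at Slc25a44 (88425013) to -0.36 at Slc25a15.

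On the centred scale, both KO libraries lay above both WT libraries at 5 of 28 regions (17.9%), against 21.4% of all regions, and below them at 2 of 28 (7.14%), against 17.3%. The 5 were those of Slc25a11, Slc25a23, Slc25a36, Slc25a41 and Slc25a42, and the 2 those of Slc25a15 and Slc25a44 (88409771). At Slc25a36 the lower KO value was 0.115 and the higher WT value 0.111. Before centring, the fragments of the genotypes overlapped at Slc25a15, Slc25a36, Slc25a41 and this Slc25a44 region. KO minus WT had the same sign at both labelled times at 13 of 28 (46.4%), against 54.5% of all regions. Each of these member shares rests on 28 regions, and its gap from the share of all regions was not tested.

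**Figure D3:**
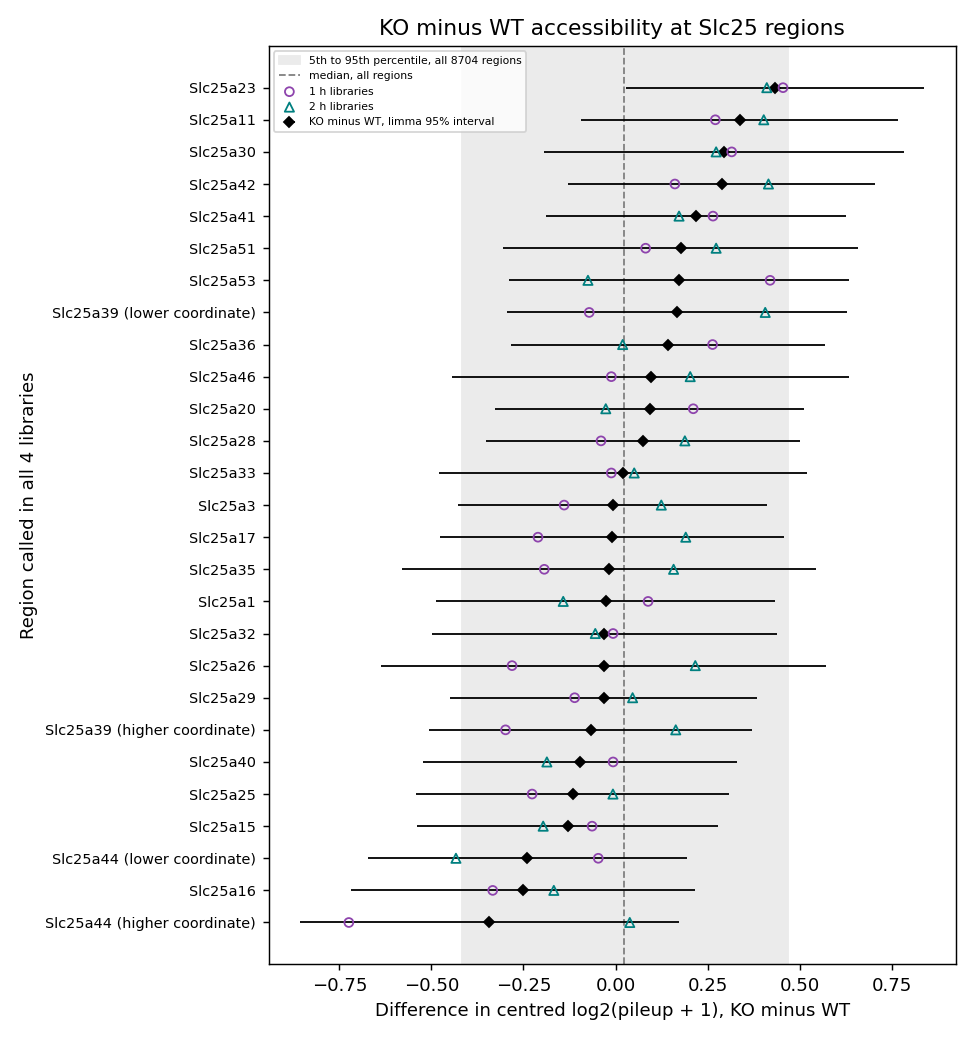
Each row is 1 of 27 member regions, of the 28 called in all 4 libraries, and the axis gives KO minus WT in centred log2(pileup + 1), with diamonds and bars for the limma estimate and its 95% interval, circles for the 1 h libraries and triangles for the 2 h libraries. The grey band spans the 5th to 95th percentile of all 8704 regions; 26 of the 27 intervals include 0, and Slc25a23 is the exception.

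The 13 regions missing from some lists were mostly weak in the lists that held them. Their fold-enrichment percentile had a median of 21.2 and reached 55.2. Of these 13, KO replicates 1 and 2 held 6 and 3, and WT replicates 1 and 2 held 7 and 11. Leaving out a library moved the exclusive counts away from 0. Without KO replicate 1, 4 regions, at Slc25a4, Slc25a10, Slc25a26 and Slc25a44, were called in both WT libraries and not in KO (9.76% of 41 member regions, against 6.32% of all regions with a call in the 3 remaining libraries). Without WT replicate 1 the count was 4, at Slc25a5 (2 regions), Slc25a21 and Slc25a26 (10% of 40, against 8.15%). It was 1 without KO replicate 2 (2.44%, against 4.22%) and 1 without WT replicate 2 (2.70%, against 5.88%), both at Slc25a12. A region called in KO and not in WT appeared without WT replicate 2 alone, at Slc25a13 (2.70%, against 6.57%). When each list was cut to the length of the shortest, Slc25a10 and the Slc25a44 region at 88421962 had calls in WT alone, in both libraries (4.88%, against 2.46%). With a −log10 q of at least 5, the Slc25a44 region alone did (2.56%, against 3.0%). These counts of 1 to 4 regions were not tested.

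Called promoter windows held more CG dinucleotides than uncalled ones. Of the 35 members that matched a RefSeq promoter window, which runs from 250 bases before to 50 after a gene start, 23 (65.7%) had a called region over a window, against 39.7% of 17492 protein-coding genes with a window. Among those without a window were Slc25a2, Slc25a26, Slc25a27, Slc25a32, Slc25a35, Slc25a41, Slc25a44, Slc25a46 and Slc25a51. The 18 member windows called in all 4 libraries held a median of 25.5 CG dinucleotides (13 to 51), the 8 windows called in 1 to 3 libraries a median of 14 (7 to 25), and the 19 windows not called a median of 8 (1 to 22). Over all protein-coding genes the medians were 24 for windows called in all 4 libraries and 5 for windows not called. The printed stretches of 250 bases held from 4 at Slc25a21 to 25 at Slc25a29. The classes overlap: Slc25a20, called in all 4 libraries, had 8 in its stretch, and Slc25a31, with 0 calls, had 18. A gene with several starts gives several windows, so windows are not independent, and no test was made.

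**Figure D4:**
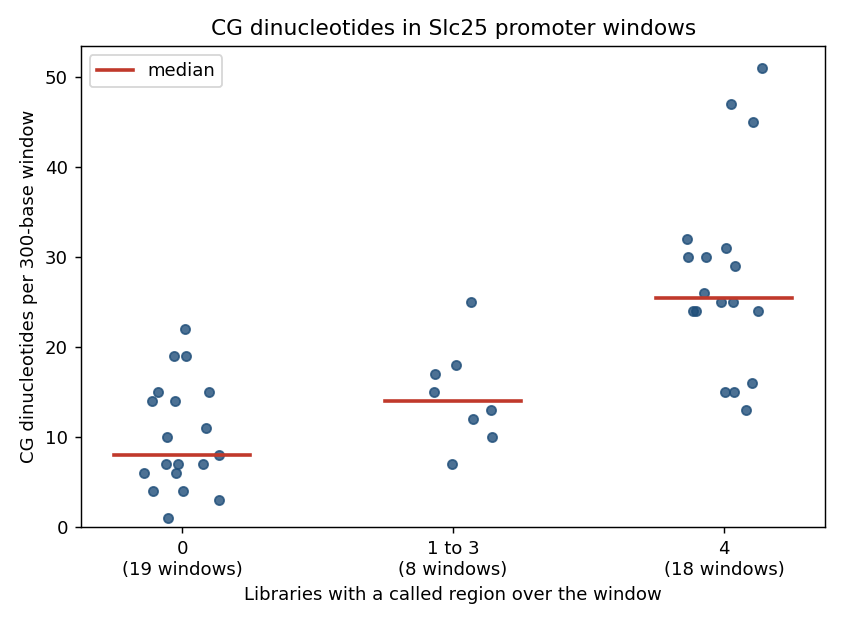
Each point is 1 of 45 promoter windows of 35 member genes, placed by the number of libraries with a called region over it, and the vertical axis counts CG dinucleotides in the 300-base window. Red lines are medians of 8, 14 and 25.5 from left to right, and the groups overlap.

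Few windows held the motifs searched on both strands. The palindromic site of NRF1, a factor of nuclear genes for mitochondria, was searched in its form of 10 letters and was in 0 of 45 member windows and in 1.33% of the windows of all protein-coding genes. CCGGAAGT, an ETS site, was in 1 (2.22%), at Slc25a20, against 5.15%. In the printed stretch it starts 79 bases before the gene start. A GATA site, the letters GATA with an A on each side, was in 3 (6.67%), at Slc25a5, Slc25a22 and Slc25a53, against 9.65%. TGTGGTTT, a RUNX site, was in 1 (2.22%), at Slc25a18, which had 0 called regions, against 1.61%. The 5 matches lay in 5 different genes, so 0 of them overlapped another. A match describes letters only.

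Of 29 member regions with a listed gene start, 21 regions, at 21 genes, had their median summit within 250 bp of it, upstream in 15 and downstream in 6, with a median offset of -47 bp (-181 to 131). For 5008 regions of the series called in all 4 libraries and placed in this way the median offset was -40 bp, and 78.0% lay upstream. The 21 member regions are a less strict set. They include regions at Slc25a4, Slc25a5, Slc25a10, Slc25a12, Slc25a13 and Slc25a14 that were called in fewer than 4 libraries. Among the 21, summits differed by a median of 74 bp between libraries and by up to 322 bp, at Slc25a53. Among the 20 regions called in both genotypes, the mean KO summit was downstream of the mean WT summit in 10 and upstream in 10. At Slc25a39 the summits stood at -67 and -64 bp in KO replicates 1 and 2, and at -70 and -66 bp in WT replicates 1 and 2, the smallest spread among regions called in all 4 libraries.

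**Figure D5:**
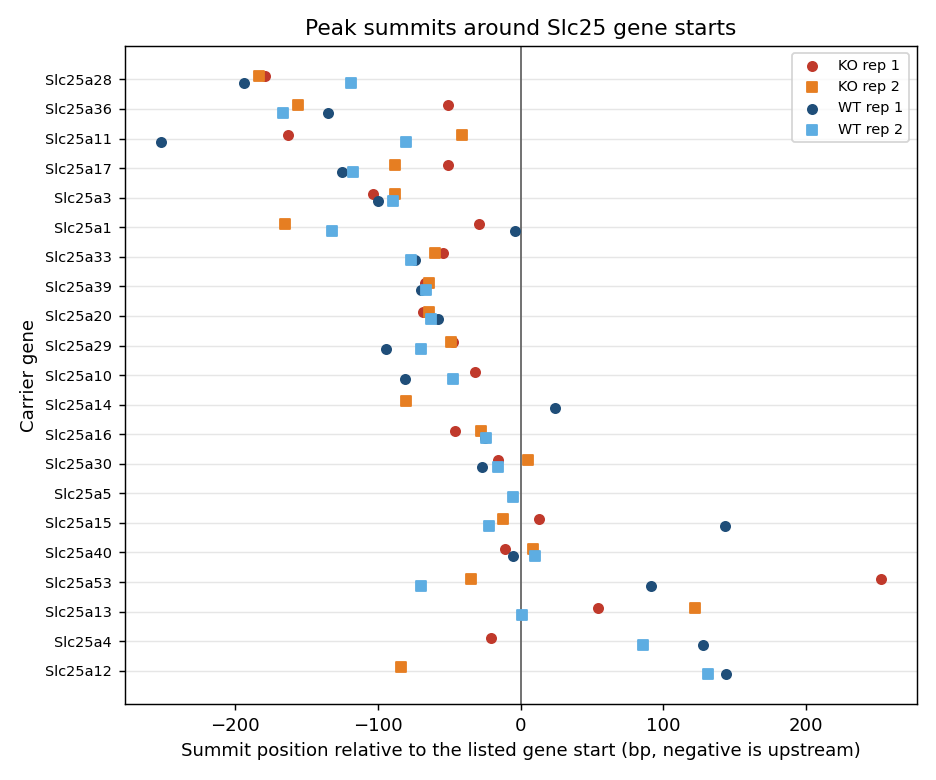
Each row is 1 of 21 member genes with a region whose median summit lies within 250 bp of a listed gene start, and each point gives a library's summit position relative to that start in bp, negative being upstream. Points of KO (red, orange) and WT (dark and light blue) mix, and 15 of the 21 medians lie upstream of the start.

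Most genes of a list of outer membrane porins, TOM and TIM import proteins and the pyruvate carrier subunits Mpc1 and Mpc2 also had calls. Of its 21 genes, 20 had a region (95.2%, against 45.8% of protein-coding genes) and 16 had a region called in all 4 libraries (76.2%, against 36.6%). Of the 16 regions called in all 4 libraries, 0 passed limma's adjusted p = 0.05, as over all regions, and 1 had an unadjusted p below 0.05 (6.25%, against 8.71% of all regions). The median difference of the 16 was -0.08 on the log2 scale, KO minus WT. The 1 region was at Vdac3, a porin of the outer membrane, with 18 and 12 fragments in KO and 29 and 28 in WT, and both KO libraries lower (-0.83 on the log2 scale, limma adjusted p = 0.363). Tomm40, the import channel, had 91 and 97 in KO and 80 and 91 in WT, and Mpc2, a subunit of the pyruvate carrier, 76 and 65 in KO and 64 and 85 in WT.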

How the data were processed

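Each library came as a single ATAC-seq peak list. The submitters' processing notes list Bowtie2 2.2.1 and MACS2 2.1.0 without saying what each did, and the deposited peak names give the build, GRCm38. The calling threshold, control, read shift, and duplicate and blacklist filters are not stated in the labels or files used. For every peak the authors deposited a score, a fold enrichment (ratio to local background), and −log10 p and −log10 q values, used only within that list.

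Summit pileup was recovered from fold enrichment and −log10 p as the whole number that gives both (tolerance 0.001) at 99.99% of peaks per library; comparing it assumes that the caller did not rescale it. Nuclear peaks were merged where they overlapped or touched. Gene spans came from GRCm38.p6 RefSeq, without exons; promoter windows and strands came from RefSeq. limma 3.58.1 in R 4.3.3 compared KO with WT over the 8704 regions called in all 4 libraries with recovered pileups; the remaining work was done in Python 3.11.15 with scipy 1.17.1, pandas 2.3.3 and numpy 2.4.6. The steps were tested on simulated data. Named were members of the 10 strongest regions, of the 5 largest differences in each direction, those with well known roles, and those with no region. Slc25a14, Slc25a17, Slc25a21, Slc25a26, Slc25a35, Slc25a53, Vdac3, Tomm40, Mpc2 and single weak regions lie outside this rule and were added after their values were seen. The values of 1 member are not reported here, though it is counted with the others. Members and lists were chosen with earlier results of these data known. Alternatives covered thresholds, list length, region and link definitions, pseudocount, scaling, measure, low-value filter, replicate block and each library left out.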

Additional observations from a re-analysis of the deposited data

Results flagged for a closer look

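At the Slc25a44 region starting at 88425013, the KO minus WT difference in log2 pileup had opposite signs at the labelled times, with -0.72 at 1 h and 0.039 at 2 h. The median over the 28 member regions also differed in sign, at -0.025 at 1 h and 0.087 at 2 h. With 1 library per genotype at each time, the difference between times was not tested.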

How the results depend on the processing

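The 28 regions called in all 4 libraries stayed between 27 and 32 under every alternative. The member regions past adjusted p = 0.05 numbered 0 under each of the 10 alternative fits or links. The count over all regions, 0 by limma with 758 at an unadjusted p below 0.05, became 70 (5 higher and 65 lower in KO) when libraries were scaled by their lowest background. That scaling moved the median of all regions to -0.21, against 0.023 before, the median of member regions to -0.24 and the difference at Slc25a41 to -0.016. With the replicate block, 2 regions of the series passed and 0 member regions; same-numbered libraries share a labelled time, and their deviations correlated at r = 0.0022 over 8704 regions. The block also ended the unadjusted call at Slc25a23. The report gives its p with the block, with scaling by lowest background and in the alternative fits where the call held. In the centred fit of all 4 libraries without the block, Slc25a23 was the only member region with such a call. This was not so in every alternative fit. Scaling by lowest background ended the call at Slc25a23 and gave such a call at 2 other member regions, which are not identified here. Regions called in both WT and neither KO library, 0 in the report, numbered 2 with lists of equal length and 1 with −log10 q of at least 5, and 1 to 4 with a library left out. The difference in called member genes, -1.5, became -3 with lists of equal length and ranged from -2.5 to -0.5 with a library left out. Regions called in KO and not in WT numbered 0 to 1 with a library left out. The median difference of member regions ranged from -0.038 to 0.084 with a library left out, fits in which the lone library was assumed to vary like the others. Of 79 other values at the 9 named differences, 78 kept their direction and stayed short of the adjusted threshold, though several moved by more than 1.5 times, as the report gives. The causes were not tested. The filter on mean pileup gives no value for Slc25a16 and the Slc25a44 region at 88425013. Read depth is unknown, and 2 libraries per genotype limit every comparison.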
